A study of Rattus norvegicus with 24 samples.

Results

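The genes described here are 10 protein-coding genes of the mitochondrial genome that encode subunits of the respiratory chain, followed across microglia from neonatal rats. They are 7 genes of complex I, Mt-nd1 (ENSRNOG00000030644), Mt-nd2 (ENSRNOG00000031033), Mt-nd3 (ENSRNOG00000033615), Mt-nd4 (ENSRNOG00000029707), Mt-nd4l (ENSRNOG00000031053), Mt-nd5 (ENSRNOG00000029971) and Mt-nd6 (ENSRNOG00000029042), and 3 genes of complex IV, Mt-co1 (ENSRNOG00000034234), Mt-co2 (ENSRNOG00000030371) and Mt-co3 (ENSRNOG00000030700). They are 10 of the 32754 gene rows in the count tables, and all 10 were among the 12860 genes that passed the filter on low counts. The list was chosen by gene identity, with the summed share of the counts and the LPS and oxygen effects of these same libraries already known. The levels and the LPS and oxygen effects, within each sex too, are therefore a description. The counts of members called for them stand beside the share of all genes called, and nothing is read from them. Differences between males and females at a given injection were not named in the choice and were tested. The values already known were of groups split by sex, so these tests are not fully independent of the choice.

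RNA was sequenced from CD11b/c-positive cells, which include microglia and other cells of the myeloid lineage, pulled out with magnetic beads from the brains of postnatal day 9 Sprague-Dawley rats without the cerebellum and olfactory bulbs. The pups had spent 8 hours a day for 8 days with their dams in room air (normoxia, Nx, 21% oxygen) or in intermittent hypoxia (IH, 2 min cycles of 10.5% and 21% oxygen). At 16 hours after the last exposure the pups received an injection of vehicle or of LPS, the endotoxin lipopolysaccharide that sets off innate immune signalling, and the cells were taken 3 hours later. Males and females were kept apart, so the 8 groups were male Nx, male IH, male Nx LPS, male IH LPS, female Nx, female IH, female Nx LPS and female IH LPS, with 3 libraries each and 24 in all. The LPS dose is 0.1 mg/kg in the methods of the study and 0.1 mg/mL in the sample labels, which also name saline rather than HBSS as the vehicle. The labels do not say whether a library came from 1 pup, so the spread given below is that between libraries. Litters are not given for the libraries either. Pups were exposed with their dams, so effects of litter and of oxygen cannot be told apart here. The planned lists of cell type markers, those of microglia included, were not analysed here, because their gene identifiers could not be paired with names. In such bulk samples, fewer cells of a type and less RNA per cell cannot be told apart.

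Mitochondria keep a small circular genome that encodes a few subunits of the respiratory complexes, together with the ribosomal and transfer RNAs needed to translate them. Complex I passes electrons from NADH to ubiquinone, and the Mt-nd genes encode its membrane-embedded core. Complex IV, cytochrome c oxidase, passes electrons to oxygen, and Mt-co1, Mt-co2 and Mt-co3 encode its core, with the catalytic centres in Mt-co1 and Mt-co2. The genome is transcribed into long precursors that are cut into separate RNAs. Mt-nd6 is the only protein-coding gene on its strand and its mRNA largely lacks the poly(A) tail that the library kit selects. Mt-nd4l and Mt-nd4 overlap and lie on 1 shared mRNA, so their counts depend on how reads over both were assigned and are uncertain. Reads that also matched nuclear copies of mitochondrial sequence were not counted. The part of these features in the values below was not tested.

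Between 6624453 and 8548714 reads per library fell on genes (median 7532796.5). Some libraries stood apart. Cxcl10, a chemokine gene that LPS is known to raise, lay between 3.99 and 14.1 CPM (counts scaled to library size, with library sizes corrected by the trimmed mean of M values, TMM) in the 12 vehicle libraries and between 440 and 3192 CPM in 10 LPS libraries, but at 123 CPM in male Nx LPS replicate 2 and at 23.1 CPM in male IH LPS replicate 3. Il1a, another cytokine gene, was at 20.6 and 19.0 CPM in those libraries, within its vehicle range of 5.41 to 33.4 CPM, as was female IH LPS replicate 1 at 31.1 CPM. Several medians and counts that rest on LPS libraries are therefore also given without the pair of low Cxcl10. Male Nx replicate 2 had 23.4% of its reads set aside as matching more than 1 place, against 11.7% to 15.8% in the other 23.

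The 10 genes together took 5.08% ± 0.483 (SD, n = 24) of all gene counts, with a median of 5.16%. In male Nx the share was 5.37%, 5.61% and 5.47%, and in male IH it was 5.16%, 4.62% and 4.24%, so the IH libraries all lay below the Nx libraries. In female Nx it was 4.96%, 5.01% and 4.94%, and in female IH it was 5.04%, 5.73% and 5.37%, so the order was the opposite, again without overlap. Male Nx LPS libraries had 4.99%, 4.63% and 5.17%, all below male Nx. Female Nx LPS libraries had 5.22%, 5.67% and 5.42%, all above female Nx. Male IH LPS libraries had 5.44%, 5.27% and 4.58%, and female IH LPS libraries had 5.30%, 3.59% and 5.05%, and both groups overlapped with their IH vehicle and Nx LPS groups. The lowest of all 24 libraries was female IH LPS replicate 2 and the highest was female IH replicate 2.

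**Figure D1:**
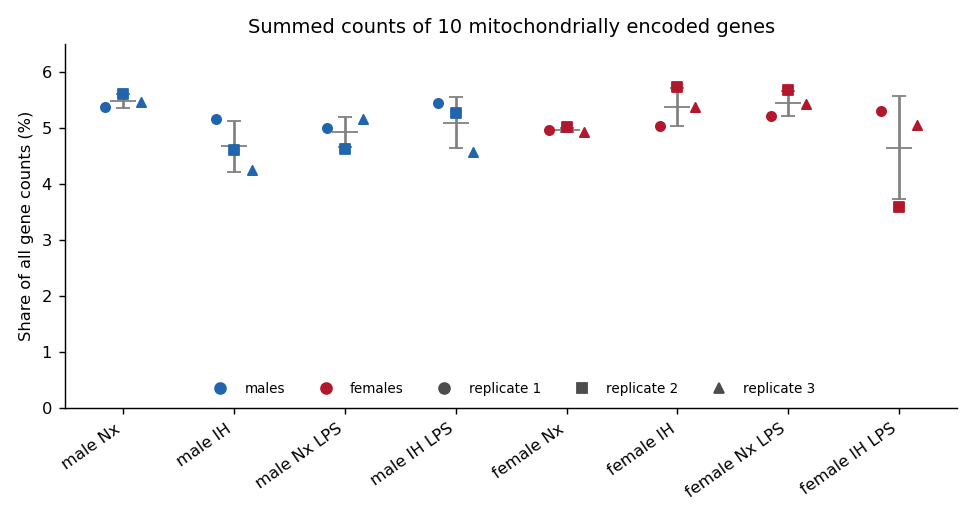
Share of all gene counts taken by the 10 genes together, in percent, for each of the 24 libraries (points, shaped by replicate number) with the mean and SD of each group of 3 (grey). Male Nx lies at 5.37% to 5.61% and male IH at 4.24% to 5.16%, female Nx at 4.94% to 5.01% and female IH at 5.04% to 5.73%, and 1 female IH LPS library lies at 3.59%.

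Ordered by the group mean, the share ran from 4.65% ± 0.920 in female IH LPS (SD, n = 3 here and below), 4.67% ± 0.460 in male IH and 4.93% ± 0.273 in male Nx LPS to 4.97% ± 0.0377 in female Nx and 5.10% ± 0.458 in male IH LPS. Above these came female IH at 5.38% ± 0.345, female Nx LPS at 5.44% ± 0.229 and male Nx at 5.49% ± 0.120. Every pair of neighbours in this order overlapped. The share is of unscaled counts, and scaling the libraries by TMM changed which groups separated. On the scaled level, male IH still lay below male Nx and female Nx LPS above female Nx, while female IH overlapped with female Nx and male Nx LPS with male Nx. The scaled sum also separated female IH LPS below female Nx LPS and male IH LPS above male IH.

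The 3 complex IV genes gave most of these counts, 72.9% ± 1.54 (SD, n = 24), within a range of 70.4% to 75.7%. Mt-co1 alone gave 39.5% ± 1.73, Mt-co3 20.9% ± 0.843 and Mt-co2 12.5% ± 0.804 of the members' counts. Of the complex I genes, Mt-nd4 gave 7.99% ± 0.361, Mt-nd1 7.67% ± 0.667, Mt-nd2 7.66% ± 0.752, Mt-nd5 2.38% ± 0.606 and Mt-nd3 1.24% ± 0.178. Mt-nd4l gave 0.160% ± 0.0787 and Mt-nd6 0.0166% ± 0.00405. These shares describe where the reads fell and are not divided by gene length, so they do not rank the genes by number of transcripts. Mt-nd6, the gene on the other strand, had only 41 to 106 reads per library, which gives a counting error of 12.9% at its median of 60 reads. Mt-nd4l had 136 to 1262 reads, and the other 8 genes had 2648 or more in every library.

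The replicates were close for most members and wide for a few. The SD of log2 CPM around the group means was 0.14 for Mt-co1, 0.15 for Mt-co3 and 0.18 for Mt-nd1, and it was 0.20 for both Mt-nd2 and Mt-nd4. It was 0.23 for Mt-co2, 0.31 for Mt-nd6, 0.32 for Mt-nd3 and 0.35 for Mt-nd5, and it reached 0.94 for Mt-nd4l. The median over all genes tested was 0.34, and over the 263 genes with a mean log2 CPM of at least 9 it was 0.24. Mt-nd4l varied more than 97.6% of all genes tested, whereas Mt-co1 varied more than 6.07% of them. For the sum of the 10 the SD was 0.15, and it was 0.0873 without female IH LPS replicate 2.

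Among the complex I genes, Mt-nd2 separated the groups in the most comparisons. Its level was 4187, 4039 and 4525 CPM under Nx, 3264, 3203 and 3120 CPM under IH and 3491, 3061 and 3272 CPM under Nx LPS in males. Both male IH and male Nx LPS thus lay wholly below male Nx. In male IH LPS it was 4275, 4498 and 3572 CPM, above both of those groups. In females it was 3743, 4143 and 3622 CPM in Nx, 3891, 4433 and 4018 CPM in IH and 4344, 5081 and 4995 CPM in Nx LPS, and the Nx LPS libraries were all above the Nx libraries. In female IH LPS it was 4231, 2419 and 4372 CPM, where replicate 2 was the lowest of all 24 libraries.

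Mt-nd1 was 3588, 5147 and 3961 CPM under Nx, 3413, 3494 and 3690 CPM under IH, 2809, 3809 and 3891 CPM under Nx LPS and 4426, 4180 and 4168 CPM under IH LPS in males. Female values were 3583, 3931 and 3245 CPM in Nx, 3995, 3996 and 3898 CPM in IH, 4657, 4423 and 4499 CPM in Nx LPS and 3970, 2796 and 4011 CPM in IH LPS. The highest library was male Nx replicate 2, the one with the most reads of more than 1 place. Mt-nd4 ranged from 2573 to 4806 CPM with a median of 4078, and Mt-nd3 ranged from 340 to 854 CPM with a median of 627. Both were lowest in female IH LPS replicate 2.

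Mt-nd5 and Mt-nd4l had the widest gaps between the sexes, although the median over male libraries was lower than that over female libraries for 9 of the 10 members. Mt-nd5 was 1039, 704 and 1465 CPM under Nx, 905, 888 and 873 CPM under IH, 1042, 684 and 1225 CPM under Nx LPS and 1205, 1154 and 687 CPM under IH LPS in males. In females it was 1527, 1133 and 1570 CPM in Nx, 1342, 1664 and 1203 CPM in IH, 1333, 1835 and 1354 CPM in Nx LPS and 1643, 1071 and 1378 CPM in IH LPS. Over 12 libraries of each sex the median was 972 CPM in males and 1366 CPM in females, with ranges of 684 to 1465 and 1071 to 1835 CPM that overlapped. Without the pair of low Cxcl10 the male median of Mt-nd5 was 1041 CPM, and males had the lower median for 8 members.

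Mt-nd4l was 85.4, 19.4 and 122 CPM under Nx, 52.5, 34.2 and 26.4 CPM under IH, 81.3, 20.8 and 81.4 CPM under Nx LPS and 54.0, 107 and 18.8 CPM under IH LPS in males. Female levels were 91.4, 93.2 and 137 CPM in Nx, 85.8, 144 and 102 CPM in IH, 66.5, 162 and 119 CPM in Nx LPS and 124, 30.9 and 122 CPM in IH LPS. Its highest level was 8.62 times its lowest. The lowest libraries were male IH LPS replicate 3, male Nx replicate 2 and male Nx LPS replicate 2, which are the LPS libraries with the least Cxcl10 and the library with the most reads of more than 1 place.

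Set against Mt-nd4, the gene on the same mRNA, the count of Mt-nd4l was 0.436% of that of Mt-nd4 in male Nx replicate 2, 0.489% in male IH LPS replicate 3 and 0.619% in male Nx LPS replicate 2. It reached 3.59% in female Nx replicate 3. This ratio needs no library scaling. Over the 12 male libraries its median was 1.24%, or 1.499% without the pair of low Cxcl10, and over the 12 female libraries it was 2.53%. The count of Mt-nd5 was 15.8% to 36.4% of that of Mt-nd4 in males and 27.7% to 41.6% in females.

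**Figure D2:**
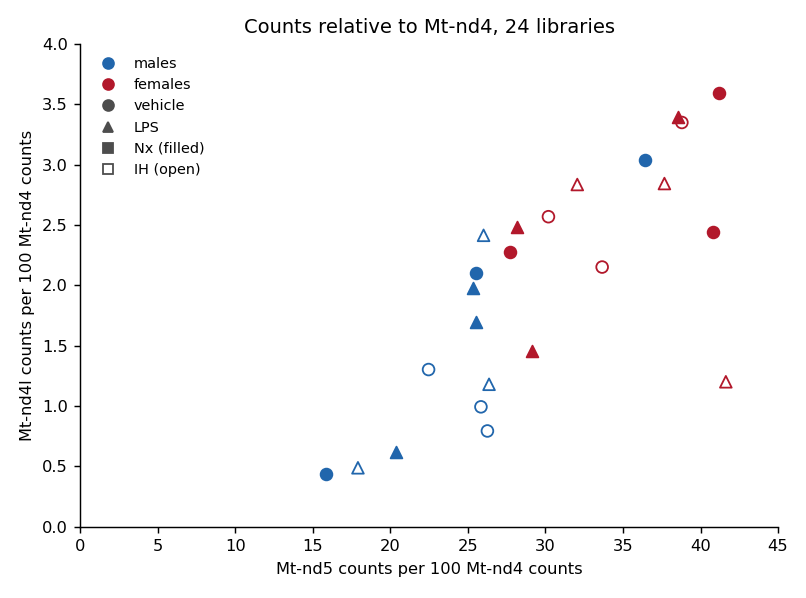
Counts of Mt-nd4l (y axis) and of Mt-nd5 (x axis) per 100 counts of Mt-nd4 in the 24 libraries, with males in blue, females in red, LPS as triangles and IH as open symbols. The 3 libraries under 0.7 on the y axis are male Nx replicate 2, male IH LPS replicate 3 and male Nx LPS replicate 2, and these also have the lowest values on the x axis.

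Mt-nd6 lay between 5.68 CPM in male Nx LPS replicate 2 and 14.7 CPM in male IH LPS replicate 2, with a median of 8.26 CPM. Vehicle males had 10.2, 5.996 and 6.37 CPM under Nx and 6.66, 6.28 and 6.98 CPM under IH. Vehicle females had 8.59, 6.97 and 7.49 CPM in Nx and 8.35, 8.26 and 8.67 CPM in IH. In LPS males it was 8.43, 5.68 and 7.62 CPM in Nx and 8.26, 14.7 and 6.51 CPM in IH. In LPS females it was 8.60, 12.2 and 8.53 CPM in Nx and 11.5, 8.08 and 11.3 CPM in IH. The ranges of these 4 sets of 6 libraries overlapped.

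Of the complex IV genes, Mt-co1 was 19345, 24613 and 19629.6 CPM under Nx, 20132, 18972 and 16932 CPM under IH, 20927, 19713 and 23264 CPM under Nx LPS and 21443, 20322 and 19186 CPM under IH LPS in males. In females it was 20123, 18852 and 18023 CPM in Nx, 19131, 21206 and 20042 CPM in IH, 21529, 22014 and 22051 CPM in Nx LPS and 19748, 14426 and 20397 CPM in IH LPS. The female Nx LPS libraries stood above all female Nx and all female IH LPS libraries, and the male groups overlapped. Mt-co2 ranged from 3674 to 7492 CPM with a median of 6648, and Mt-co3 from 7269 to 12695 CPM with a median of 10813. Both were at their lowest in female IH LPS replicate 2, and in males both were lower in all IH than in all Nx vehicle libraries.

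**Figure D3:**
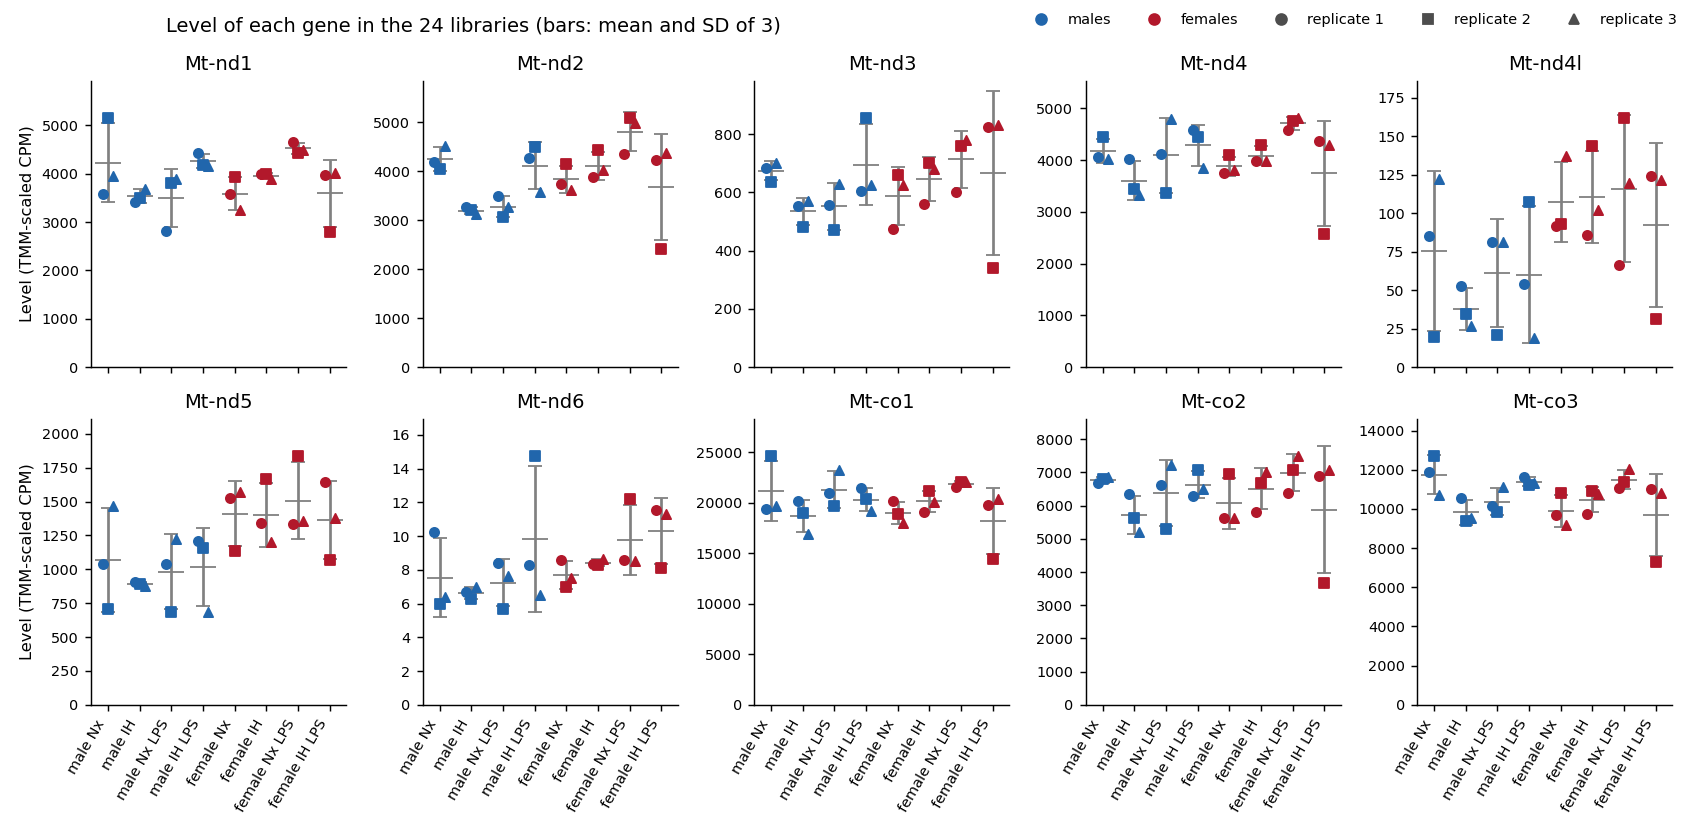
Level of each of the 10 genes in TMM-scaled CPM (linear axes from 0) in the 24 libraries, grouped by sex, oxygen and injection, with the mean and SD of 3 in grey. Female IH LPS replicate 2 is the lowest library in 7 of the panels (Mt-nd1, Mt-nd2, Mt-nd3, Mt-nd4, Mt-co1, Mt-co2 and Mt-co3), and males have the lowest libraries of Mt-nd4l, Mt-nd5 and Mt-nd6.

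Differences between LPS and vehicle were first taken with the sexes weighted equally, which averages male and female effects that had opposite signs in some cases (given below by sex). In Nx, the members' log2 differences ran from -0.10 ± 0.44 (standard error, SE) for Mt-nd4l to 0.14 ± 0.20 for Mt-nd6. The median of the 10 was 0.03 beside -0.04 over all genes tested, and it became -0.05 when libraries were scaled by their totals alone. In IH the differences ran from -0.01 ± 0.10 for Mt-co1 to 0.43 ± 0.20 for Mt-nd6, with a median of 0.07 beside -0.01 over all genes. By edgeR's quasi-likelihood F test with an adjusted p below 0.05, LPS changed 16.1% of all genes tested in Nx and 7.16% in IH. The calls held 0 of the 10 members in either (0 and 1 at an unadjusted p below 0.05, beside 3601 and 2490 of all genes, and 0 with DESeq2), which is a description, since these effects were known when the list was drawn up. Without the LPS libraries of low Cxcl10 the medians were 0.10 in Nx and 0.12 in IH, and edgeR called 21.5% and 12.5% of all genes (2771 and 1602 genes). None of the members was among them, with 0 and 1 at an unadjusted p below 0.05 beside 4186 and 3131 of all genes.

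Between IH and Nx, all 10 members had a negative log2 difference in vehicle libraries, from -0.48 ± 0.45 for Mt-nd4l to -0.02 ± 0.20 for Mt-nd6. Their median was -0.08 beside -0.02 over all genes. Leaving out 1 male Nx library turned some of them positive, to 0.02 for Mt-nd1 and 0.01 for Mt-co1 without replicate 2, 0.01 for Mt-nd5 without replicate 3 and 0.12 for Mt-nd6 without replicate 1. In LPS libraries 8 of the 10 were negative, from -0.18 ± 0.44 for Mt-nd4l to 0.26 ± 0.20 for Mt-nd6, with a median of -0.05. Without female IH LPS replicate 2 this median was 0.03, and without the libraries of low Cxcl10 it was -0.06. The test called 0% of all genes in either comparison, with 130 and 378 genes at an unadjusted p below 0.05 and none of the members among them, and DESeq2 also called 0 genes. For the difference between the LPS effects in IH and in Nx, the share of genes called was again 0%, with 182 genes and 0 members at an unadjusted p below 0.05, and the members' median was 0.06, or 0.08 without the libraries of low Cxcl10.

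**Figure D4:**
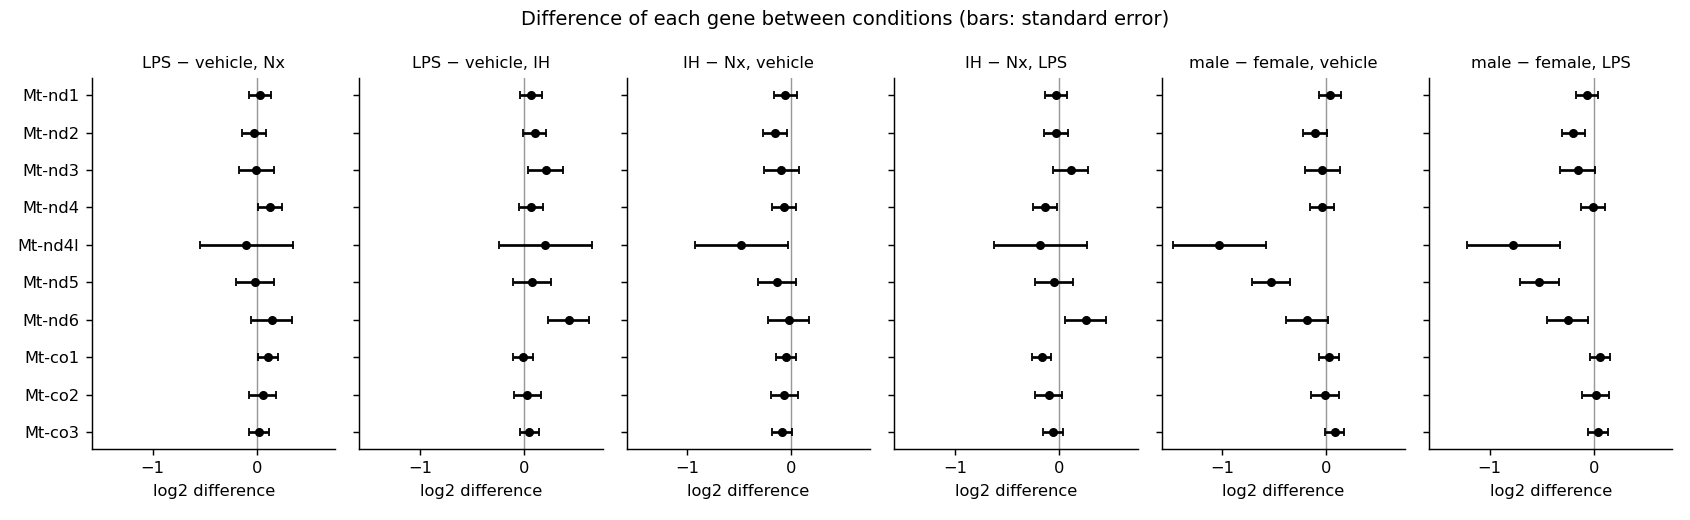
Log2 difference of each of the 10 genes (points, with the standard error as bars) for LPS against vehicle, IH against Nx and males against females, each over 12 libraries. Most points lie within 0.3 of 0, and Mt-nd4l at -1.03 and -0.77 and Mt-nd5 at -0.53 and -0.52 in the comparisons of the sexes lie farthest to the left.

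Differences between males and females were tested across all genes, and 0 of the 10 members passed. In vehicle libraries edgeR called 0.0622% of the genes tested (8 genes), and in LPS libraries 0.07% (9 genes). Mt-nd5 gave a log2 difference, males minus females, of -0.53 in vehicle (95% interval -0.89 to -0.17, edgeR adjusted p = 0.399) and of -0.52 in LPS (-0.88 to -0.16, adjusted p = 0.396). Mt-nd4l gave -1.03 in vehicle (-1.91 to -0.15, edgeR adjusted p = 0.417) and -0.77 in LPS (-1.65 to 0.10, adjusted p = 0.526). At an unadjusted p below 0.05 stood 2 members in vehicle and 1 in LPS, beside 1506 and 1383 of all genes, and DESeq2 and the likelihood ratio test called 0 members.

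Without the LPS libraries of low Cxcl10, which are both male, the difference in LPS libraries was -0.31 for Mt-nd5 and -0.35 for Mt-nd4l. The vehicle libraries do not include them. For Mt-co1 the difference between the sexes was 0.03 in vehicle (-0.16 to 0.21) and 0.06 in LPS (-0.13 to 0.25), and for Mt-nd4 it was -0.04 (-0.26 to 0.19) and 0.00 (-0.23 to 0.22). For Mt-nd6 it was -0.19 (-0.57 to 0.20) and -0.25 (-0.63 to 0.13). No test compared one gene's difference with another's, and none took the share of reads on no gene into account. Whether the effect of LPS or of IH differed between the sexes, averaged over the other factor, was computed too, with 0% of all genes called, 169 and 88 genes and 0 members at an unadjusted p below 0.05, 0 genes called by DESeq2, and member medians of -0.01 and 0.00. Without the libraries of low Cxcl10 these medians were 0.09 and -0.01.

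Within each sex some of these effects had opposite signs, and several rested on 1 library. In Nx libraries the median log2 difference of the members between LPS and vehicle was -0.15 in males, with 9 of 10 negative, and 0.25 in females, with 10 of 10 positive. Without male Nx LPS replicate 2 the male median turned to 0.05, with 6 of 10 positive. In IH libraries it was 0.26 in males, with 10 of 10 positive, and -0.13 in females, with 8 of 10 negative. Without female IH LPS replicate 2 the female median turned to 0.09, with 9 of 10 positive, and without male IH LPS replicate 3 the male median was 0.37. For IH against Nx it was -0.26 in vehicle males (10 of 10 negative), 0.09 in vehicle females (9 of 10 positive), 0.10 in LPS males (8 of 10 positive) and -0.26 in LPS females (9 of 10 negative). In LPS males it was 0.02 without male Nx LPS replicate 2 (5 of 10 positive), 0.28 without male IH LPS replicate 3 (9 of 10 positive) and 0.08 without both (7 of 10 positive). In LPS females it was -0.04 without replicate 2 of IH LPS, with 6 of 10 negative. Leaving out single libraries turned no other of these 8 medians. These comparisons share groups, and the 10 genes come from the same libraries, so neither the comparisons nor the genes are independent.

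Some members separated the groups without overlap. Male IH lay wholly below male Nx for 4 members (Mt-nd2, Mt-nd3, Mt-co2 and Mt-co3), as did 2.04% of all genes tested. Female IH lay wholly above female Nx for 0 members, beside 1.42% of all genes. Male Nx LPS lay below male Nx for 2 members (Mt-nd2 and Mt-nd3), beside 8.72% of all genes. Female Nx LPS lay above female Nx for 5 members (Mt-nd1, Mt-nd2, Mt-nd4, Mt-co1 and Mt-co3), beside 13.1%. Male IH LPS lay above male Nx LPS for 3 members (Mt-nd1, Mt-nd2 and Mt-co3), beside 1.99%, and above male IH for 4 members (Mt-nd1, Mt-nd2, Mt-nd3 and Mt-co3), beside 7.27%. Female IH LPS lay below female Nx LPS for 4 members (Mt-nd1, Mt-nd4, Mt-co1 and Mt-co3), beside 5.28%. Female IH LPS separated from female IH for 0 members, beside 10.7% of all genes wholly above and 10.2% wholly below. Males and females separated in opposite directions for 1 member with LPS in Nx (Mt-nd2), beside 0.0467% of all genes, and for 2 members with IH in LPS (Mt-nd1 and Mt-co3), beside 0.148%.

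These counts are over groups of 3, and fewer libraries separate more easily. Without the libraries of low Cxcl10, male Nx LPS lay below male Nx for 2 members beside 19.6% of all genes, male IH LPS lay above male Nx LPS for 3 members beside 12.7%, and male IH LPS lay above male IH for 9 members beside 19.8%. Without female IH LPS replicate 2, female IH LPS lay below female Nx LPS for 4 members beside 9.38% and above it for 1 member beside 5.47%, and it lay above female IH for 3 members beside 17.9%.

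The difference between the sexes in each of these effects was computed in comparisons added because the shares had shown opposite directions, so the signs below restate that pattern and are no test of it. For the effect of IH in vehicle libraries, males minus females, all 10 members were negative with a median of -0.34 beside 0.04 over all genes. For that of LPS in Nx libraries all 10 were negative with a median of -0.40 beside 0.02, and the largest was Mt-nd2 at -0.70 ± 0.23 (SE). For that of IH in LPS libraries all 10 were positive with a median of 0.37 beside 0.02, and for that of LPS in IH libraries all 10 were positive with a median of 0.35 beside 0.00. The difference of these differences, by sex, oxygen and injection together, was positive for all 10 with a median of 0.70 beside -0.02, within quartiles of -0.39 to 0.26 over all genes.

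In that last comparison the members ran from 0.45 for Mt-nd5 to 1.35 for Mt-nd4l, the member with the widest replicate spread. The 4 members at an unadjusted p below 0.05 (edgeR) were Mt-nd2 at 1.23 ± 0.32 (SE), Mt-nd1 at 1.02 ± 0.30, Mt-co3 at 0.72 ± 0.27 and Mt-nd4 at 0.69 ± 0.32. They are listed for their p and are not the largest differences. In each of these 5 comparisons edgeR called 0% of all genes, and DESeq2 called 0 genes as well. At an unadjusted p below 0.05 they held 95, 149, 218, 202 and 201 of all genes and 1, 2, 2, 1 and 4 of the 10 members, in the order given above.

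A few libraries carried much of this pattern. Without female IH LPS replicate 2 the median was 0.15 for the effect of IH in LPS libraries, 0.14 for that of LPS in IH libraries and 0.54 for the comparison of all 3 factors. Without male Nx LPS replicate 2, 1 of the libraries of low Cxcl10, the median for LPS in Nx libraries was -0.22. Without both libraries of low Cxcl10 it was also -0.22, and the medians were 0.35 for IH in LPS libraries, 0.44 for LPS in IH libraries and 0.72 for all 3 factors. The direction of the median was the same in each of these.

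The members were also compared with each other within groups. Over the 24 deviations of log2 CPM from the 8 group means, Pearson's r between pairs of Mt-nd1, Mt-nd2, Mt-nd3, Mt-nd4, Mt-co1, Mt-co2 and Mt-co3 ran from 0.42 to 0.90 with a median of 0.78. Among Mt-nd4l, Mt-nd5 and Mt-nd6 it ran from 0.57 to 0.87. Between these sets it ran from -0.16 to 0.72 with a median of 0.39, and the negative values were those of Mt-nd1. The sets were not apart, since Mt-nd4l reached 0.72 with Mt-nd2 and 0.67 with Mt-nd3. Without female IH LPS replicate 2, r among the first 7 ran from -0.19 to 0.73 with a median of 0.48, among the other 3 from 0.52 to 0.87, and between the sets from -0.56 to 0.75 with a median of 0.24. Part of the correlation among the 7 thus rested on that library. All members of a library share its depth and scaling, and the sets were drawn after the values had been seen.

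**Figure D5:**
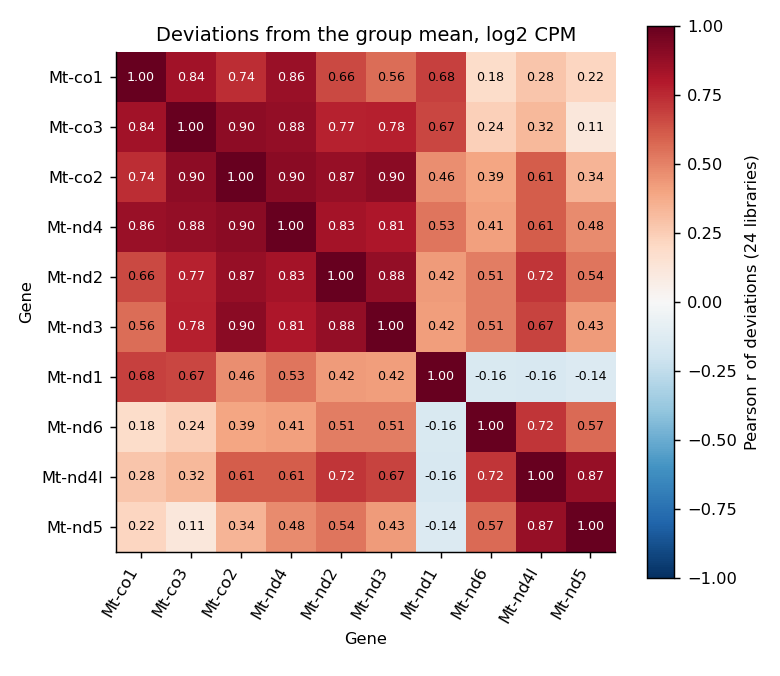
Pearson's r between the 10 genes over the 24 deviations of log2 CPM from the group means (red positive, blue negative). Mt-nd4l and Mt-nd5 are at 0.87, Mt-co2 and Mt-nd4 at 0.90, and Mt-nd1 is between -0.16 and -0.14 with Mt-nd6, Mt-nd4l and Mt-nd5.

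Over the same deviations, the genes outside the list whose level was most like the sum of the 10 were ENSRNOG00000002563 (r = 0.94) and ENSRNOG00000031979 (r = 0.94), which have no name here. The 10 are not all mitochondrially encoded genes, and whether either of these is another was not determined. The genes that ran most against the sum were ENSRNOG00000047427 (r = -0.81) and ENSRNOG00000033883 (r = -0.81), also without a name. The 21 other genes with a name are those that the paper lists as altered by IH, many of them targets of NF-κB signalling. They are thus not a sample of all genes, and inflammatory genes among them follow from that list. Of these 21, the highest were Cxcl9, a chemokine (r = 0.53), Irf1, an interferon-responsive transcription factor (r = 0.48), AC134224.3 (r = 0.46), Cd83, a surface protein of activated antigen-presenting cells (r = 0.46), and Birc3, an inhibitor of apoptosis (r = 0.45). The lowest of those with a name were S1pr3, a sphingosine 1-phosphate receptor (r = -0.18), Cd7 (r = -0.14) and Mcpt1l1 (r = -0.03). The points share library, depth and scaling, and without female IH LPS replicates 2 and 3, whose deviations in the sum were farthest from the median deviation, r was 0.86 for ENSRNOG00000002563, 0.87 for ENSRNOG00000031979, -0.64 for ENSRNOG00000047427, -0.62 for ENSRNOG00000033883, 0.42 for Cxcl9, 0.39 for Irf1, 0.44 for Cd83, 0.43 for Birc3 and 0.24 for AC134224.3. The low values of the genes with a name did not hold without those libraries, at -0.07 for S1pr3, 0.05 for Cd7 and 0.24 for Mcpt1l1. Whether any of these values rest on the LPS libraries of low Cxcl10 was not tested.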

How the data were processed

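Libraries were stranded mRNA libraries sequenced on an Illumina HiSeq. Per the labels, the authors aligned the reads to rn6 with TopHat2 2.1 and counted them per Ensembl gene with HTSeq, and they deposited raw counts per gene for each of the 24 libraries. The 5 summary rows that name no gene, 28.9% to 38.3% of the reads in a file, were left out.

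The analysis used edgeR 4.0.16 in R 4.3.3. A gene was kept where its CPM exceeded 1 in 3 or more of the 24 libraries, libraries were scaled by TMM, and 8 group means were fitted to all 24. Each contrast was put to the quasi-likelihood F test, and p-values were adjusted by Benjamini-Hochberg over all 12860 genes with a threshold of 0.05. SEs came from the log2 difference and its F statistic, and 95% intervals are 1.96 SEs. Comparisons weight the pooled groups equally. Scripts were tested on simulated data. Counts of replicates differed beyond sampling noise in all pairs (chi-square over its degrees of freedom 7.81 or more), so no replicate was another's library counted again. Each library was counted as 1 sample. Libraries from littermates or from 1 pool of cells would pass this check too. Replicate numbers were in the labels. Between groups, deviations of same-numbered libraries correlated at a mean r of 0.05, against -0.03 for other numbers. Of 84 same-numbered pairs 37 had r above 0.1, against 47 of 168 other pairs. Libraries were not paired in the main fit, and whether the numbers mark a shared batch was not tested.

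The members and lists were chosen with earlier results of these data known. In addition, 5 comparisons, the fit without both LPS libraries of low Cxcl10 and the left-out libraries in the effects within each sex and in the members' correlations were added after seeing the data. The rule for named genes was all 10 members in every comparison and, outside them, the 5 most and 3 least like their sum among the genes with a name. All 10 were fitted in every comparison, but many are given only by their median, range or count of signs. Names outside the members were available for 21 genes, so lists of nuclear respiratory genes, mitochondrial transcription genes and cell type markers were not analysed here, and of the list of cytokine genes only Cxcl10 and Il1a were. Levels per length, sequences and coordinates of the members were not analysed here, and the lists' rule of naming called genes could not be followed. The alternatives were DESeq2 1.42.0, a likelihood ratio test, RLE size factors, library totals, no filter, the 10 members left out of the scaling, only the samples compared, sex as an additive term, other denominators of the share, a replicate block, and each library left out.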

Additional observations from a re-analysis of the deposited data

Results flagged for a closer look

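In the groups of 6 libraries that share oxygen and injection or sex and injection, the lowest or highest library lay apart from the other 5, by a gap of more than 0.625 of the range, in 17 of 88 cases. Chance flags about 1 in 20 independent cases. These cases are not independent, since each library is in 2 groups and the genes come from the same libraries, so no excess is read from the count. Of the 17 cases, 12 were female IH LPS replicate 2. Its share of all gene counts was 3.59%, against 5.05% to 5.67% in the other female LPS libraries. Its levels were 2796 CPM for Mt-nd1, 2573 CPM for Mt-nd4, 14426 CPM for Mt-co1, 3674 CPM for Mt-co2 and 7269 CPM for Mt-co3, apart from both the female LPS and the IH LPS libraries, and 2419 CPM for Mt-nd2, apart from the female LPS libraries. Male Nx replicate 2 was high for Mt-nd1 at 5147 CPM among vehicle males and for Mt-co1 at 24613 CPM among Nx vehicle libraries. Female Nx replicate 1 was low for Mt-nd3 at 475 CPM among Nx vehicle libraries. Mt-nd6 was high at 10.2 CPM in male Nx replicate 1 and at 14.7 CPM in male IH LPS replicate 2.

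The sexes went opposite ways without overlap in 5 cases. In vehicle libraries the share was lower in all male IH than in all male Nx libraries and higher in all female IH than in all female Nx libraries, a difference of effects of -1.22 percentage points. In Nx libraries it was likewise lower with LPS in males and higher with LPS in females, a difference of -1.02 percentage points. On the TMM-scaled sum of the 10, female IH overlapped with female Nx and male Nx LPS with male Nx, so neither case separated in both sexes. Neither difference in the share was tested, since the sum is over chosen genes. For single genes the same held for Mt-nd2 with LPS in Nx (log2 difference of effects -0.70), and in the other direction for Mt-nd1 (0.62) and Mt-co3 (0.38) with IH in LPS. Of all genes tested, 0.0467% and 0.148% separated in these ways. The comparisons of single genes were added after these directions had been seen, and edgeR and DESeq2 called 0 genes in them (149 and 218 genes at an unadjusted p below 0.05).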

How the results depend on the processing

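Across 4640 recomputed differences of single members, none passed the threshold. In 190 of them the sign changed, and in 2 of those the value also moved by the gene's replicate SD or more. Both were Mt-nd6 without male IH LPS replicate 2, in the sex difference of the IH effect in LPS libraries (-0.047, from 0.36, with up to 0.589 on leaving out another library) and of the LPS effect in IH libraries (-0.137, from 0.27, with up to 0.499). With the replicate block, 0 members were called in any comparison, and the members' median for LPS in Nx was 0.02. Same-numbered libraries correlated at -0.57 to 0.49 and other pairs between groups at -0.61 to 0.59, ranges that do not settle whether the numbers pair them. Leaving out each library moved the median for the sex difference of the LPS effect in Nx between -0.46 and -0.22, of the IH effect in LPS libraries between 0.15 and 0.50, of the LPS effect in IH between 0.14 and 0.49, and of all 3 factors between 0.54 and 0.83. Without both LPS libraries of low Cxcl10 the first of these was -0.22. The corresponding differences in share, in percentage points, lay between 0.431 and 1.28 for IH in LPS, 0.631 and 1.48 for LPS in IH, and 1.65 and 2.50 for all 3 factors. Over all reads in the file in place of gene counts, the share was 3.47%, and its sex differences were -0.615 for IH in vehicle, -0.491 for LPS in Nx and 1.23 for all 3 factors. Complex IV gave 55.2% of the counts without Mt-co1. The replicate SD of the sum lay between 0.0873 and 0.157. Over all genes, sex in vehicle called 19 genes with DESeq2 and with the likelihood ratio test, in place of 8, and sex in LPS 32 with each and 69 with the block, in place of 9. LPS in IH called 602 genes without male IH LPS replicate 1 and 1602 without the low Cxcl10 libraries, in place of 921. The causes were not tested. Only the 10 members, and not all mitochondrially encoded genes, could be left out of the scaling. Mt-nd6, at 41 to 106 reads, is limited by depth.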
